A study of Mus musculus with 4 samples.

Results

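MHC class II genes were followed across 4 arrays of T cell preparations from the mouse gut. The genes were listed by name: the antigen-presenting chains H2-Aa, H2-Ab1 and H2-Eb1, the peptide-loading chains H2-DMa, H2-DMb1, H2-DMb2, H2-Oa and H2-Ob, the invariant chain Cd74 and the co-activator Ciita. Of these 10 genes 9 were measured, out of 22180 genes measured in all. A gene was measured if a probe set listed it as its only gene symbol, and with several such probe sets the one with the highest mean over the 4 arrays was used. Cd74 shared its probe set with a microRNA gene and was therefore skipped. Each of the other 9 genes had 1 such probe set.

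C57Bl/6 mice aged 8 to 10 weeks were used, and 10 of them (5 male, 5 female) were pooled; the wording of the design text can be read as 10 mice per array or as 10 in all. One array held colon intraepithelial lymphocytes (IEL, the lymphocytes housed within the gut epithelium) of mice given vancomycin, ampicillin, neomycin and metronidazole in the drinking water for 7 days and then recolonized for 7 days with bacteria of untreated littermates (the design text gives co-housing in one place and used bedding in another). The others held colon IEL of unmanipulated mice, IEL of the small intestine (SI) of unmanipulated mice, and, by its label, T cells of the colon lamina propria (LP), the tissue beneath the epithelium. They are called the recolonized, colon, SI and LP-labelled arrays. All 4 preparations went through the same kind of magnetic negative selection for T cells, with an antibody against the epithelial protein EpCAM added. No array came from mice given antibiotics without recolonization. With 1 array of pooled mice per group, no difference below has a replicate check, an error or a test, and the number of arrays limits the precision.

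MHC class II molecules carry peptides of proteins taken up from outside the cell and show them to CD4 T cells. An alpha chain and a beta chain are made together with the invariant chain, which blocks the groove until H2-DM helps to exchange its remnant for a peptide; H2-O restrains H2-DM, mainly in B cells. Class II genes are strongly transcribed in B cells, dendritic cells and macrophages, can be induced in gut epithelium by interferon gamma, and are not made by most mouse T cells. Transcription depends on CIITA, which docks onto factors bound to the X and Y boxes of class II promoters. C57BL/6 mice lack a working H2-Ea gene, so the H2-Eb1 chain has no partner for an I-E molecule.

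The X and Y boxes are shown because class II promoters are known to share them. Whether these boxes bear on the order of arrays described below was not tested. RefSeq promoters of the build GRCm38.p6 (250 bases before to 50 after a start of the gene) were held for 7 of the 10 genes. The windows of 80 bases below run 5′ to 3′ on the gene's strand, with the Y box core TGATTGG in capitals and, where present upstream of it, the X1 box core GNAAC in capitals too.
H2-Aa, chr17:34287847-34287926, minus strand: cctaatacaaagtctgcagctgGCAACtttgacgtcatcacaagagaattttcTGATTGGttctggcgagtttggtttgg
H2-Eb1, chr17:34305753-34305832, plus strand: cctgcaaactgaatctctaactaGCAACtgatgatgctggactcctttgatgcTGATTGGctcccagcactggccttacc
H2-DMb1, chr17:34153075-34153154, plus strand: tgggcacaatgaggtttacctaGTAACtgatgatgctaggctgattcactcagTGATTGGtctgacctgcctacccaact
H2-DMb2, chr17:34145104-34145183, plus strand: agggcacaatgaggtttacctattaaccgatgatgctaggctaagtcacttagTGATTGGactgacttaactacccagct
H2-Oa, chr17:34092281-34092360, plus strand: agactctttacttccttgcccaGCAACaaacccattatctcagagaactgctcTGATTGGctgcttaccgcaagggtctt
H2-Ob, chr17:34238793-34238872, plus strand: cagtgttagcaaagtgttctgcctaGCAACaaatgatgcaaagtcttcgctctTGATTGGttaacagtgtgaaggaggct

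The Y core was present, on either strand, in promoters of 6 of these 7 genes (not in those of H2-DMa). Of all 27025 genes with promoters of the same length 9.0% held it, and of their 32851 promoters 7.82%. In the 6 genes it began between 45 and 92 bases before the start on which the promoter was set. For H2-DMa and H2-DMb2 the promoters held lay downstream of the gene's first base (34119693 and 34143229 on chromosome 17). Promoters at those bases were not searched. The X1 core followed by the Y core on 1 strand, with 10 to 30 bases between them, was present for 5 genes. The same pair was present for 0.666% of all genes and in 0.581% of all promoters. The spacing in those 5 genes was 23 to 26 bases. The X1 core alone says little, since 84.8% of all promoters hold it. The letters and the spacing were chosen with the sequences in view. The promoters of the neighbouring copies H2-DMb1 and H2-DMb2 were identical at 84.3% of 255 bases aligned without a gap. Their probe sets are reported separately below, and how far transcripts of one copy bind probes of the other was not tested.

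Before the comparisons, the arrays were set against their labels. The 9 measured T cell markers had median log2 levels of 6.59 on the recolonized array, 5.64 on the colon array, 5.54 on the SI array and 2.41 on the LP-labelled array. The 14 pan-epithelial markers had medians of 5.01, 4.40, 5.53 and 8.21 in the same order. The markers of the LP-labelled array thus went against its label. Red cell markers (4 measured of 8 listed) reached 8.75 in the median on the colon array and 3.37 to 3.86 on the others. Stromal and endothelial markers had medians of 4.28 on the recolonized array, 4.93 on the colon array and 2.77 and 2.49 on the SI array and the LP-labelled array. In such mixed preparations, fewer cells of a type and less RNA per cell cannot be told apart.

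In the deposited values all 9 class II genes were highest on the SI array, and all 9 had the colon array next. For 7 of them the recolonized array followed and the LP-labelled array last, and for H2-Ab1 and H2-DMb1 these last places were swapped. Some of these places depended on the scaling. For the recolonized array minus the LP-labelled array, H2-Ab1 turned to 0.06 with quantile normalization and 0.16 with the lowess correction, and H2-Ob to -0.07 and -0.17. Under the same scalings H2-DMb1 turned to -0.10 and -0.23 for the colon array minus the LP-labelled array, and H2-DMa to 0.11 and 0.10 for the colon array minus the SI array. Each gene is compared with itself between arrays. The median log2 level of the 9 genes was 3.09 on the recolonized array, 4.01 on the colon array, 5.16 on the SI array and 2.14 on the LP-labelled array. The median of all measured genes lay between 2.18 and 2.41 on these arrays, and 7, 8, 9 and 4 of the 9 class II genes were at or above it. Without replicates it is not known which neighbours in this order differ beyond the spread between samples.

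H2-Ab1, H2-Aa and H2-Eb1, the antigen-presenting chains, were with H2-DMb2 the genes of widest range over the arrays. H2-Ab1, the beta chain of the I-A molecule, had log2 levels of 4.31 on the recolonized array, 7.62 on the colon array, 9.30 on the SI array and 5.13 on the LP-labelled array. In these values, though not under quantile normalization or the lowess correction, it was lower on the recolonized array than on the LP-labelled array, unlike the other 2 chains. H2-Aa, the alpha chain of the same molecule, had levels of 4.72, 5.90, 8.12 and 3.90 on the same arrays in the same order. H2-Eb1, the beta chain of I-E, had levels of 5.38, 6.21, 7.51 and 3.83. The 3 chains shared the place of the SI array at the top and of the colon array below it. H2-Ea, the absent partner of H2-Eb1 in this strain, was at 1.90, 1.86, 1.58 and 1.32, under the median gene on every array.

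The peptide-loading genes followed the chains with smaller or larger steps. H2-DMb2, a beta chain of H2-DM, had log2 levels of 2.65 on the recolonized array, 4.36 on the colon array, 6.33 on the SI array and 1.72 on the LP-labelled array. Its neighbouring copy H2-DMb1 had levels of 1.55, 2.14, 3.42 and 2.02, and lay above the median gene only on the SI array. H2-DMa, the alpha chain, had levels of 3.84, 4.01, 4.70 and 3.24, a range of 1.46 that was the narrowest of the 9 genes; the widest was 4.99 for H2-Ab1. The probe sets of the H2-DM chains thus had unlike ranges, and that of H2-DMb1 was limited by its low levels outside the SI array. What this means for the dimer was not tested. H2-Oa, the alpha chain of the inhibitor H2-O, had levels of 3.09, 3.52, 4.28 and 2.14. H2-Ob, its beta chain, had levels of 2.22, 3.35, 4.98 and 2.10. Ciita, the co-activator on which class II transcription depends, had levels of 2.89, 3.06, 5.16 and 1.91, so that it stood apart on the SI array.

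**Figure D1:**
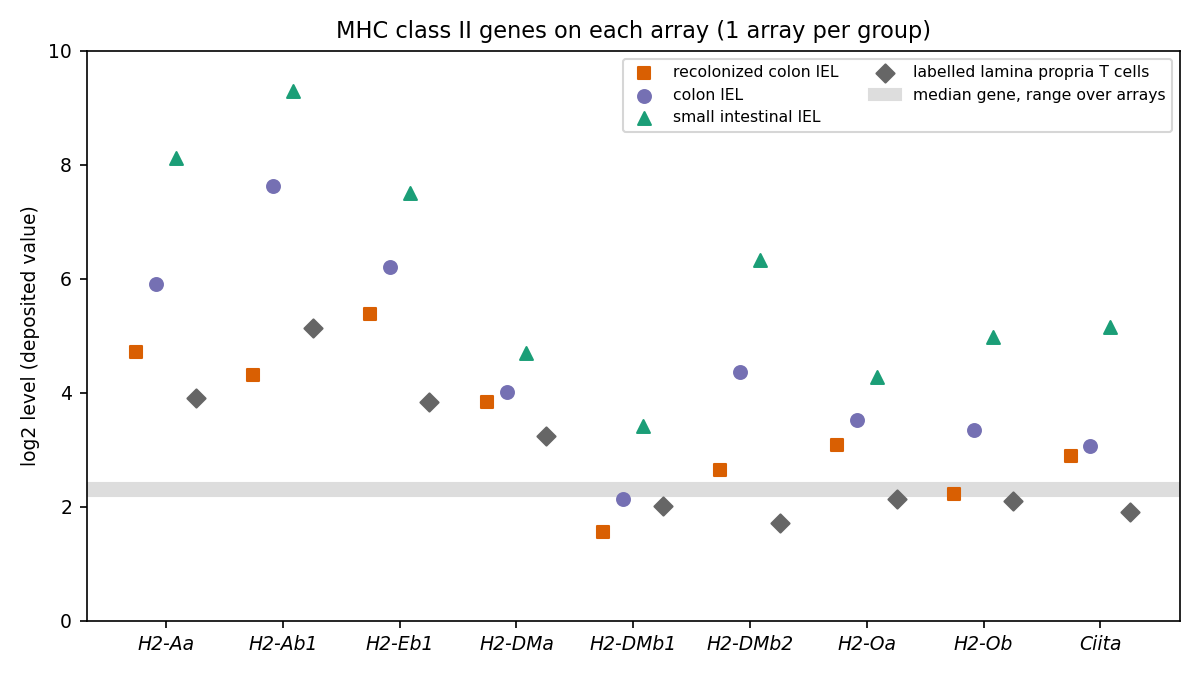
Log2 levels of the 9 measured MHC class II genes (horizontal axis) on each of the 4 arrays (marker and colour); the grey band spans the median gene level of the 4 arrays, 2.18 to 2.41. In these deposited values the SI IEL array is highest for every gene (for H2-DMa not under quantile normalization or the lowess correction), from 3.42 for H2-DMb1 to 9.30 for H2-Ab1.

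Recolonized colon IEL were compared with colon IEL of unmanipulated mice to ask how antibiotics followed by the return of bacteria bear on these cells; the antibiotics and the recolonization cannot be told apart. All 9 class II genes were lower on the recolonized array, with a median log2 difference of -0.83, against a median of 0.13 over the 12443 genes above the level floor. The floor was the median gene level of the brighter array of the pair, and a gene was counted from a 2-fold difference. Of the 8 class II genes above the floor, 4 were lower by 2-fold or more, as were 3.06% of all 12443 genes, and 0 were higher by as much, as were 6.04% of all. H2-Ab1 was 9.92-fold lower, H2-DMb2 3.26-fold, H2-Aa 2.26-fold and H2-Ob 2.18-fold. H2-DMb2 differed by -1.70 on the log2 scale, and by -2.35 under quantile normalization. H2-Eb1 differed by -0.83, H2-Oa by -0.44, Ciita by -0.17 and H2-DMa by -0.16 on the log2 scale. H2-DMb1, under the floor, differed by -0.59. The differences of the class II genes had an SD of 0.98 among themselves, and H2-Ab1 stood farthest out.

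B cell markers were lower on the recolonized array too: all 12 measured markers had a negative difference, with a median of -0.63, and 5 of the 11 that reached the floor were at least 2-fold lower. Cd79a, a signalling chain of the B cell receptor, was at 3.31 on the recolonized array and 5.57 on the colon array, and its partner Cd79b at 2.64 and 4.56. Cd79a and Cd79b had the largest differences of the list, and the smallest were -0.03 for Ebf1 and -0.10 for Pax5. The summed linear level of the list, on the log2 scale, was 7.10 on the recolonized array and 7.85 on the colon array. The 9 measured dendritic cell markers had a median difference of 0.01, and 2 of the 9 were at or above the array's median gene on each of these arrays. Cd209a, a lectin of the list, was at 7.31 on the recolonized array and 6.89 on the colon array, whereas Flt3, Zbtb46, Batf3 and Xcr1 lay under the median gene on all 4 arrays. The 13 measured macrophage and monocyte markers had a median difference of -0.13, with 1 of 10 above the floor at least 2-fold lower and 1 higher. Markers of colonocytes, the absorptive cells of the colon epithelium, went the other way: their median level was 6.05 on the recolonized array and 3.19 on the colon array, and 6 of 8 were at least 2-fold higher and 0 lower. Car4, a carbonic anhydrase, was 12.8-fold higher, Guca2a, the hormone guanylin, 11.1-fold and Cyp2c55 8.07-fold. The red cell and stromal medians given above differed between these arrays as well. The part of any of these cells in the class II difference was not tested.

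Genes of the MHC class I route, which shows peptides made inside the cell to CD8 T cells, did not share the direction. Of 14 measured, 12 were higher on the recolonized array and 2 lower, with a median difference of 0.56 (0.06 after a lowess correction), and 0 were at least 2-fold apart. Erap1 came closest, just under the threshold, at 4.65 on the recolonized array and 3.66 on the colon array. Tap1 and Tap2, the chains of the peptide transporter, were each higher by 0.68, and H2-K1, a class I heavy chain, was at 8.42 against 7.71. Genes that respond to interferon gamma or carry its signal had a median difference of 0.31 over 14 measured, with 11 positive, and 1 of 12 above the floor at least 2-fold higher: Igtp, a GTPase induced by interferon, at 4.22 against 3.11. The transcription factor Irf8 went the other way, at 2.53 against 3.52, just short of 2-fold lower. Ifng itself was under the median gene on all 4 arrays, at 1.75 on the recolonized array and 1.47 on the colon array. Of the 23 further genes of the class II pathway (proteases, promoter-binding factors, costimulators and others), 1 of 18 above the floor was at least 2-fold higher and 2 lower, with a median of 0.00. The higher one was Ctss, the protease that trims the invariant chain, at 6.53 against 5.03. The lower ones were Ifi30, a thiol reductase of the loading compartment, at 3.99 against 5.58, and Ctsb, another lysosomal protease, at 6.78 against 8.15.

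In the class II region both kinds can be set side by side, because class I route genes lie among the class II genes. In RefSeq order the 14 protein-coding genes run H2-Oa, Brd2, H2-DMa, H2-DMb2, H2-DMb1, Psmb9, Tap1, Psmb8, Tap2, H2-Ob, H2-Ab1, H2-Aa, H2-Eb1 and H2-Eb2. All 8 listed class II genes of this stretch were lower on the recolonized array than on the colon array. Of the 6 others, Brd2, Tap1, Psmb8 and Tap2 were higher, by 0.37 to 0.68. They stayed positive under each scaling tried, with the lowest value 0.09 for Psmb8 after the lowess correction. Psmb9, a subunit of the immunoproteasome, differed by -0.65, and H2-Eb2, a class II beta-like gene outside the list, by -0.13. For scale, the differences of 63 ribosomal protein genes between these arrays had an SD of 0.6. The differences of Brd2, Psmb8, H2-Eb2, H2-DMa, H2-Oa and H2-DMb1 were smaller in size than this SD. Those of Tap1, Tap2 and Psmb9 lay just beyond it. In colon IEL against SI IEL all 14 genes were negative in the deposited values.

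**Figure D2:**
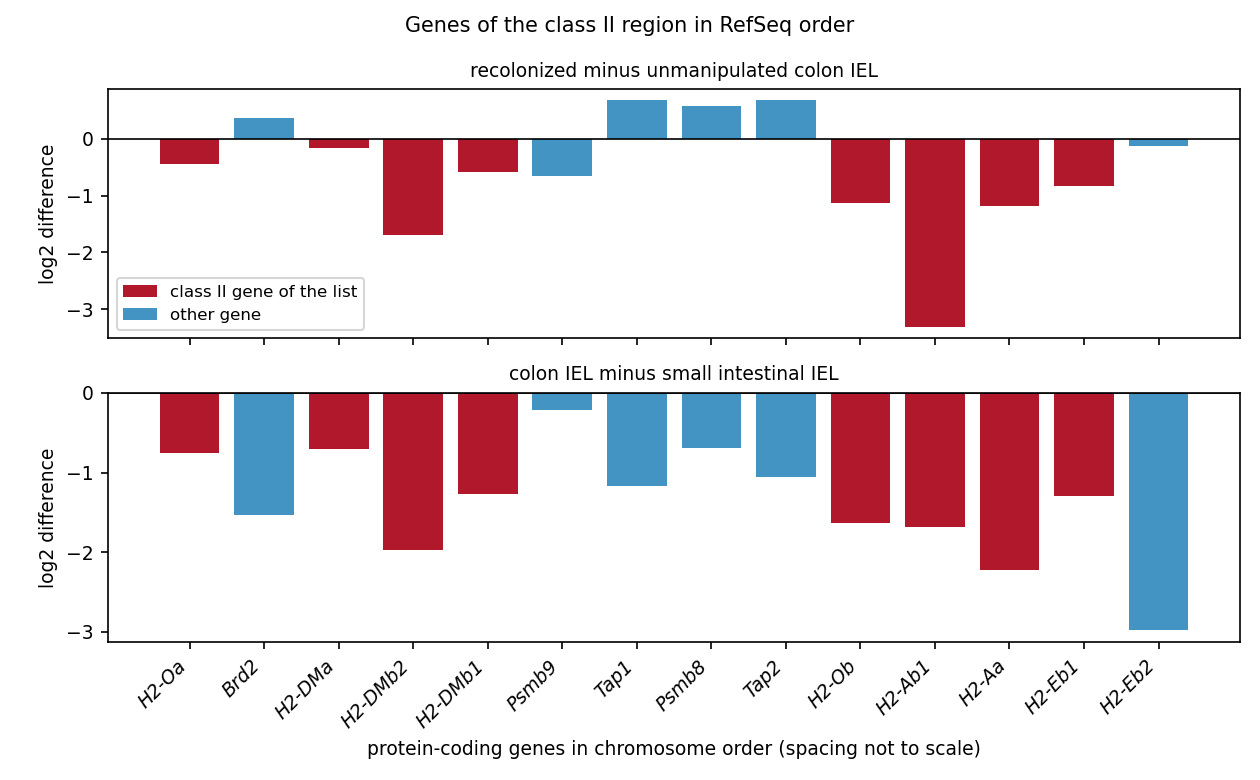
Log2 differences of the 14 protein-coding genes of the class II region in chromosome order, for recolonized minus unmanipulated colon IEL (top) and colon IEL minus SI IEL (bottom). In the top panel the listed class II genes (red) lie below 0, down to -3.31 for H2-Ab1, while 4 of the 6 other genes (blue) lie above it; in the bottom panel all lie below 0 in the deposited values.

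The comparison of colon IEL with SI IEL addresses regional differences of IEL within the gut. All 9 class II genes were lower on the colon array, with a median difference of -1.63, against -0.30 over all 12551 genes above the floor. Of the 9, all above the floor, 7 were lower by 2-fold or more, as were 24.4% of all genes, and 0 were higher by as much, as were 5.98%. H2-Aa was 4.65-fold lower, Ciita 4.28-fold, H2-DMb2 3.93-fold and H2-Ab1 3.20-fold. H2-DMa and H2-Oa differed by -0.70 and -0.76. These sizes depended on the scaling. Under quantile normalization and the lowess correction H2-Aa differed by -1.20 and -1.25, H2-DMb2 by -0.93 and -1.00, H2-Ab1 by -1.00 and -0.81, and Ciita by -1.63 and -1.40. H2-Eb1, at -1.30 in the deposited values, differed by -0.25 and -0.32. Quantile normalization left 5 genes at least 2-fold lower and the lowess correction 3, and the difference of H2-DMa was above 0 under both, as given above. Ciita, which differed by -0.17 between the colon arrays, differed here by -2.10.

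The B cell markers had a median difference of -2.13 in colon IEL against SI IEL, with 10 of 12 at least 2-fold lower. Ms4a1, the B cell protein CD20, was at 3.17 on the colon array and 6.65 on the SI array. The summed level of the list was 7.85 on the colon array and 9.79 on the SI array, and 11 and 12 of the 12 markers were at or above the array's median gene. The 7 plasma cell markers had a median difference of -0.44, with 4 negative and 3 positive; Jchain, the immunoglobulin joining chain, was the extreme at 2.21 on the colon array and 7.64 on the SI array, while Mzb1 differed by 0.13 and Derl3 by 0.66. The 9 dendritic cell markers had a median difference of 0.11, with 7 positive and 2 negative. Itgax, the integrin chain CD11c of dendritic cells and of some IEL, was at 2.10 on the colon array and 5.24 on the SI array, and Cd209a at 6.89 and 5.83. The macrophage and monocyte list had a median difference of -0.24. The pan-epithelial median was 4.40 on the colon array and 5.53 on the SI array, and the enterocyte median 2.24 and 9.51. The part of these cells in the class II difference was not tested.

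H2-Eb2 was at 2.59 on the colon array and 5.58 on the SI array, the largest difference among the further class II pathway genes, of which 7 of the 21 that reached the floor were at least 2-fold lower and 0 higher. The next were Lag3, an inhibitory receptor that binds class II molecules, at 2.55 and 5.07, Ctss at 5.03 and 7.43, and Ifi30 at 5.58 and 7.15. Of the class I route genes 6 of 14 were at least 2-fold lower and 0 higher, with a median of -0.91. Quantile normalization brought that median to -0.01 and the lowess correction to 0.02, whereas the class II median was then -1.00 and -0.91. The interferon gamma list had a median of -0.40, with 5 of 12 genes above the floor at least 2-fold lower, among them the receptor chain Ifngr2 at 4.61 and 6.99 and the transcription factor Irf8 at 3.52 and 5.40.

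With recolonized colon IEL in place of unmanipulated colon IEL, the distance to SI IEL was wider. These comparisons share the SI array. The class II genes had a median difference of -2.26, against -0.20 over the 12379 genes above the floor. Of the 9, 8 were at least 2-fold lower, where 17.9% of all genes were, and 0 higher, where 4.76% were; the remaining gene was H2-DMa with -0.86. H2-Ab1 was 31.8-fold lower, H2-DMb2 12.8-fold and H2-Aa 10.5-fold, a log2 difference of -3.39 that was -2.72 under quantile normalization. The B cell markers had a median difference of -3.45, with 10 of 12 at least 2-fold lower, while 0 of 14 class I route genes were at least 2-fold apart in either direction.

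**Figure D3:**
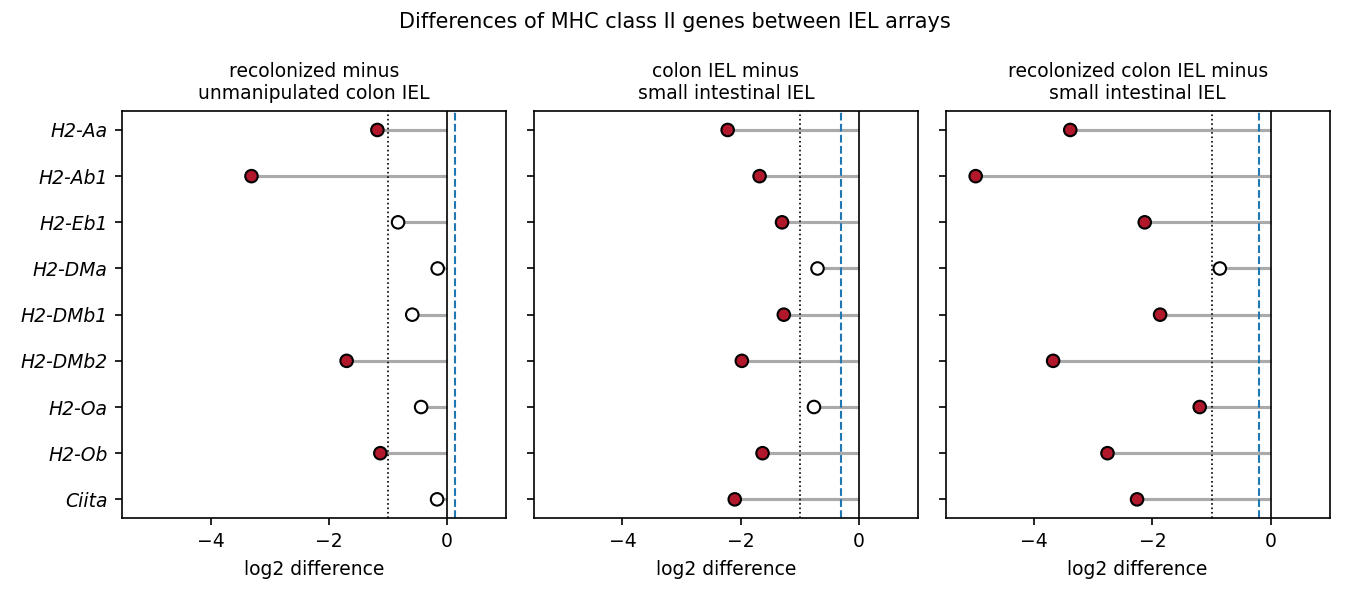
Log2 differences of the 9 class II genes in the 3 comparisons between IEL arrays. Filled points are at least 2-fold lower (dotted line) and above the level floor; the dashed blue line is the median over all genes above the floor, at 0.13, -0.30 and -0.20 from left to right. Every point lies below 0 in these deposited values; H2-DMa in the middle panel was above 0 under quantile normalization and the lowess correction.

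Set against the LP-labelled array, all 9 class II genes were higher on the SI array and on the colon array in the deposited values, and 7 were higher and 2 lower on the recolonized array. These comparisons share the LP-labelled array. On the SI array 9 of 9 were at least 2-fold higher, where 8.76% of all genes above the floor were, and 0 lower, where 15.7% were, with a median difference of 3.24. H2-DMb2 was 24.5-fold higher, H2-Aa 18.6-fold and H2-Ab1 18.0-fold, with H2-DMb2 under the median gene on the LP-labelled array. On the colon array 7 of 8 above the floor exceeded the 2-fold threshold upwards, where 10.5% of all genes were, and 0 lower, where 34.7% were, with a median of 1.39. On the recolonized array 1 of 7 above the floor, H2-Eb1, was at least 2-fold higher, where 9.41% of all genes were, and 0 lower, where 30.3% were. The median there was 0.82, and H2-Ab1 and H2-DMb1 had differences of -0.82 and -0.47, of which that of H2-Ab1 turned with the scaling as given above. The B cell markers had medians of 4.08 on the SI array, 1.40 on the colon array and 0.60 on the recolonized array against the LP-labelled array, where 4 of 12 reached the median gene. Their part in the class II differences was not tested.

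**Figure D4:**
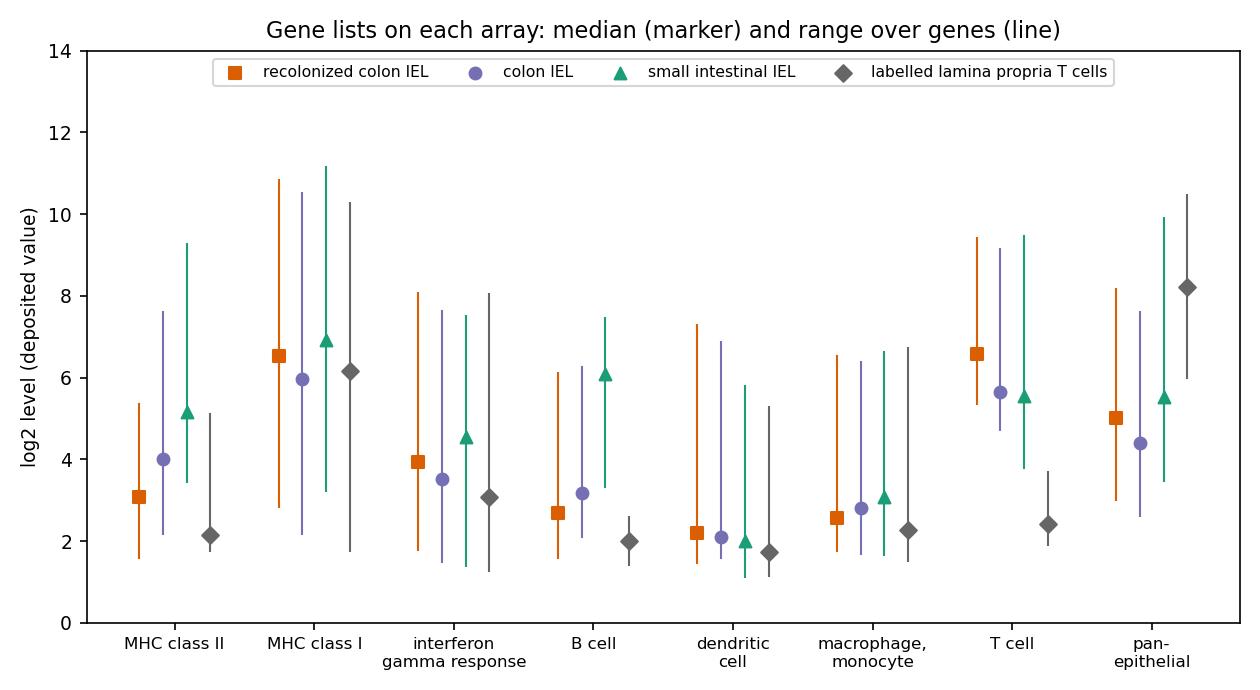
Median log2 level (marker) and range over genes (line) of 8 gene lists on each array. The class II and B cell medians run in the same order over the 4 arrays. They go from 5.16 and 6.10 on the SI array to 2.14 and 1.99 on the LP-labelled array. The macrophage and monocyte medians share that order only within a narrow span, from 3.07 to 2.26, close to the median gene. The summed linear level of that list, on the log2 scale, does not keep the order. It is 7.84 on the SI array, 7.71 on the recolonized, 7.46 on the LP-labelled and 7.39 on the colon array. The class I medians stay between 5.96 and 6.91.

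The genes whose pattern was nearest to that of the chains were looked for among 13724 genes above the median on their brightest array. Likeness was the root mean square distance, over the 4 arrays, between a gene's level centred on its own mean and the mean centred profile of H2-Aa, H2-Ab1 and H2-Eb1. The nearest were Cd79b with a distance of 0.18, Ly86 with 0.19, Fcmr with 0.22 and Pik3ap1 with 0.26. They were followed by the gut hormone gene Gip and the oxidase subunit gene Cybb with 0.32 each, Bank1 with 0.34 and Cd200r1 with 0.40. Cd79b and Bank1 are also in the B cell list used here. Fcmr, an Fc receptor for immunoglobulin M, was at 3.46 on the recolonized array, 5.39 on the colon array, 6.95 on the SI array and 2.50 on the LP-labelled array. Ly86, which codes for a secreted partner of a Toll-like receptor relative, was at 2.40, 4.37, 6.18 and 2.41. The chains that define the profile had distances of 0.23 (H2-Aa), 0.51 (H2-Eb1) and 0.63 (H2-Ab1), with 3, 17 and 36 of the 13724 other genes nearer. Among the class II genes that did not define it, H2-DMb2 had a distance of 0.22 and H2-Ob of 0.47, with 2 and 12 other genes nearer. Ciita followed with 0.63 (36 nearer), H2-Oa with 0.89 (137 nearer) and H2-DMb1 with 1.02 (242 nearer). H2-DMa was farthest with 1.10, and 329 genes were nearer. With 4 points per gene these distances describe the arrays only.

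**Figure D5:**
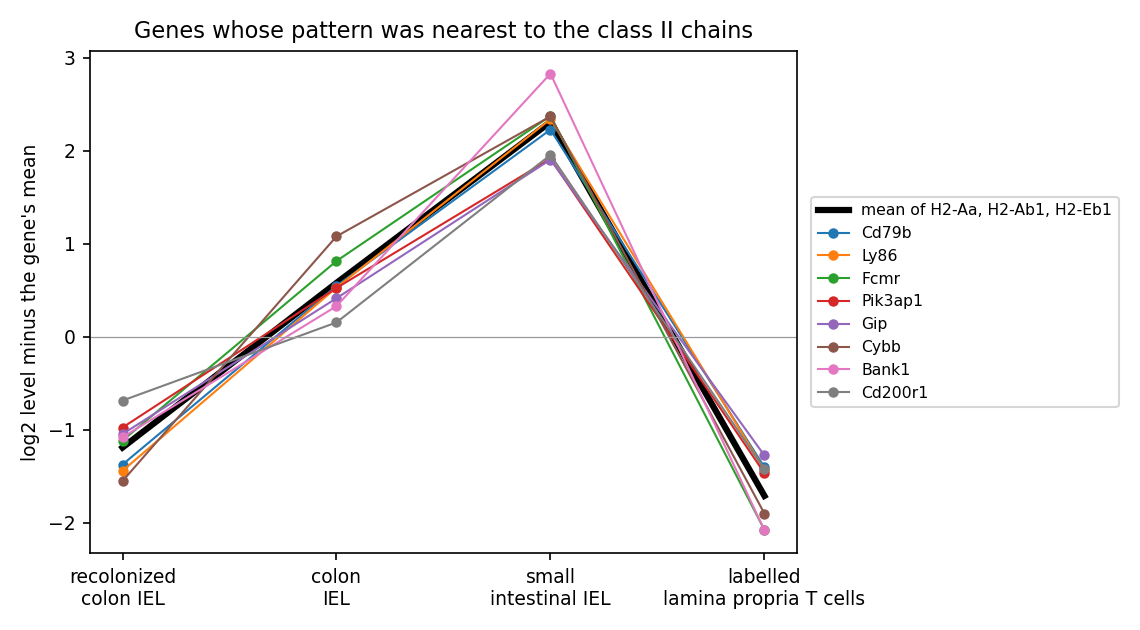
Log2 level minus the gene's own mean over the 4 arrays (vertical axis), for the mean of the 3 class II chains (black) and the 8 genes nearest to it. All 8 peak on the SI array, where the chain profile is at 2.31, and have the colon array next.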

How the data were processed

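The deposited values are log2 levels per probe set, for which the submitters' processing notes name Affymetrix Expression Console. How the authors summarized and normalized the probes, the software version and the genome build are not stated in those notes. The table held 41345 probe sets on 4 arrays, with values from 0.58 to 13.07. Of these, 23521 listed 1 gene symbol, 1814 several and 16010 were not in the gene table used; 1082 genes had more than 1 probe set. The second probe set of H2-Oa lists another gene too and was not used. Levels were compared for the same gene between arrays, as differences of log2 values, with Python 3.11.15, pandas 2.3.3 and statsmodels 0.14.6.

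Counts took genes that reached the 50th percentile of gene levels on whichever array of a pair was brighter, and differed by 2-fold or more. The genes, lists and comparisons were chosen with earlier results of these data known. Members were all named, up to 4 genes per other list by the size of the difference or the level, and the 8 genes of most similar pattern. H2-Ea, Cd79b, Pax5, Ebf1, Ifng, H2-K1, Tap1, Tap2, Psmb8, Psmb9, Brd2, Irf8, Cd209a, Mzb1, Derl3, Flt3, Zbtb46, Batf3 and Xcr1 were named after their values were seen. The alternatives were other floors and fold thresholds, the mean of probe sets, quantile normalization, centring and lowess correction. The differences and counts, with centring and lowess correction, were tested on simulated data. Changes were planted there only in genes of higher mean level, and no scale difference between arrays was simulated. Quantile normalization was checked on a small made-up table only. The pattern search and the promoter search were not tested in this way.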

Additional observations from a re-analysis of the deposited data

How the results depend on the processing

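The median differences of the class II genes kept their sign in all 6 comparisons under the mean of probe sets, quantile normalization, centring and the lowess correction. They ranged from -1.14 to -0.83 for recolonized against unmanipulated colon IEL, and from -2.26 to -1.89 for recolonized colon IEL against SI IEL. For colon IEL against SI IEL quantile normalization gave a median of -1.00 and the lowess correction one of -0.91, with 3 genes at least 2-fold lower after the latter. For SI IEL against the LP-labelled array it was 2.78 under quantile normalization. A 3-fold threshold left 2 genes lower in recolonized against unmanipulated colon IEL and 4 higher in colon IEL against the LP-labelled array. For recolonized colon IEL against that array the number higher was 2 under quantile normalization, 5 after centring, 3 after lowess, 6 at 1.5-fold and 0 at 3-fold, and 1 gene was lower at 1.5-fold. The other counts stayed within 1.5 times. The 216 differences of single class II genes under these settings include those under the mean of probe sets, which could not change. Of the 216, 8 changed sign, all under quantile normalization or the lowess correction: H2-DMa in colon IEL against SI IEL, H2-DMb1 in colon IEL against the LP-labelled array, and H2-Ab1 and H2-Ob in recolonized colon IEL against that array.

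For lists checked this way after seeing the data, the class I median turned to 0.02 for colon IEL against SI IEL (lowess) and to 0.02 for recolonized colon IEL against SI IEL (quantile). Against the LP-labelled array it turned to 0.46 (quantile) and 0.56 (lowess) for colon IEL. The interferon gamma median turned to 0.11 (quantile) and 0.07 (lowess) for recolonized colon IEL against SI IEL. The further class II pathway genes turned to 0.17 (quantile) and 0.05 (lowess) for colon IEL, and to 0.09 (centring) for recolonized colon IEL, against the LP-labelled array. Causes were not tested. Genes at least 2-fold higher made up 66.3% of all genes counted in recolonized against unmanipulated colon IEL, and 46.6% to 51.6% under the 3 scalings. In colon IEL against SI IEL they made up 19.7%, and 39.7% to 45.3% under the scalings, and in recolonized colon IEL against SI IEL 21.0%, and 37.7% to 45.1%. Against the LP-labelled array the shares were 23.7% (41.6% to 46.4%) for recolonized colon IEL, 23.2% (42.6% to 47.6%) for colon IEL and 35.8% (45.1% to 47.5%) for SI IEL. Genes at least 2-fold lower in recolonized against unmanipulated colon IEL numbered 381, and 766 under quantile normalization; those higher in colon IEL against SI IEL numbered 751, and 1090 to 1603 under the scalings. No paired analysis was possible because each group has 1 array. Genes near the median level, such as H2-DMb1, are limited by the low end of the arrays.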

Other observations

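The search for similar patterns was repeated over the 3 IEL arrays, a choice made after seeing the data because the content of the fourth array went against its label. Of the 8 nearest genes, 4 were shared with the search over all arrays: Cd79b, Fcmr, Ly86 and Gip. Ifi30, the thiol reductase that unfolds antigens in the class II loading compartment, was among the others, with log2 levels of 3.99 on the recolonized array, 5.58 on the colon array and 7.15 on the SI array. On the LP-labelled array, which that search left out, Ifi30 was at 7.37, above its level on each IEL array.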
